A study of Mus musculus with 10 samples.

Results

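FBB1.7 is a subclone of mouse erythroleukemia (MEL) cells that stably expresses BCL11A with a FLAG and biotin tag, and its RNA was compared with that of the parental line, Mel-BirA. The comparison takes the 2 arrays titled for FBB1.7 and the 2 titled for the parental line, 4 of the 10 arrays of the series, over all 45037 probe sets that are not controls. Of these, 25061 were above the median of the whole table, an intensity of 30.5, on at least 2 of the 10 arrays and were tested. Both lines carry BirA, a bacterial ligase that attaches biotin to the tag, so the labels name the tagged BCL11A as what sets FBB1.7 apart. The remaining arrays hold FBB1.5, FBB1.10 and FBB1.11, subclones with the same tagged protein on 2 arrays each. They give a second comparison whose means take no parental array. The parental arrays still enter its estimate of spread, which all 10 arrays share. FBB1.7 is 1 clone, so the construct and the history of the clone cannot be told apart. No label says that the paired arrays are independent cultures. A p-value therefore reflects only how far arrays of a line differ, which may be technical.

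MEL cells are red cell precursors transformed by Friend virus, which grow as immature erythroblasts and can be induced to make haemoglobin. BCL11A is a zinc finger repressor that recruits the NuRD complex and is known for silencing embryonic and fetal globin genes. Growth of such cells draws on protein quality control, in which chaperones of the endoplasmic reticulum fold secreted and membrane proteins and the proteasome, a barrel-shaped protease with a regulatory cap, degrades proteins marked with ubiquitin.

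The values are linear intensities of probe sets on Affymetrix Mouse Genome 430 2.0 arrays, with array medians of 29.6 to 31.6. Across tested probe sets Pearson's r was 0.9872 between the FBB1.7 arrays and 0.981 between the parental arrays, as a description across probe sets that share arrays. Between FBB1.7 and parental arrays it was 0.9685 to 0.9774. Arrays of a line were not always the closest. Parental 1 had r = 0.9851 with FBB1.11 2, above its value with parental 2. FBB1.7 2 had r = 0.9865 with FBB1.10 1, close to the value within FBB1.7. The actin control probe sets give a 3'/5' ratio that rises as RNA is degraded. It was 1.07 and 1.06 on the FBB1.7 arrays, against 1.22 and 1.8 on the parental arrays. It thus moved with the comparison. It was also fitted as a covariate, which ended 60 of the 135 calls among named probe sets, and most of the calls it ended are given beside their genes. Gata1 and Klf1, transcription factors that define erythroid cells, were bright in both lines, with Gata1 at 2258 and 2204 in FBB1.7, against 2163 and 2339 in parental cells. The anion exchanger gene Slc4a1, a marker of later erythroid cells, did not exceed the table median on any of the 4 arrays.

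FBB1.7 had lower transcripts of some mast cell protease and granule genes, most of all Mcpt2 and Cma1, and of some growth factor signalling genes. Of 5 lower protease and granule genes, 3 stayed lower with the actin covariate. Of 6 such signalling genes, 2 stayed lower with the actin covariate. Transcripts of most proteasome subunits, several endoplasmic reticulum chaperones and a haem-degrading enzyme were higher. At an adjusted p below 0.05, 2519 of 25061 probe sets differed from parental (10.1%), 1140 higher (4.55%) and 1379 lower (5.50%). Most of these differences were small: the median size among called probe sets was 0.53 on the log2(intensity + 16) scale, and 113 of the 2519 reached 1. Counted by gene, with each of 12502 genes read by its brightest probe set, 1333 differed (10.7%), 535 higher (4.28%) and 798 lower (6.38%). The test was limma's moderated test on a fit of 5 line means to all 10 arrays, adjusted by Benjamini-Hochberg over all probe sets tested. Without FBB1.7 1 the count was 859, without FBB1.7 2 1071 and without parental 2 1608. The balance turned without a parental array, to 1332 higher and 1139 lower without parental 1 and to 850 higher and 758 lower without parental 2. With the actin ratio as a covariate it was 974 (593 higher and 381 lower), and 12 probe sets (5 higher and 7 lower) exceeded a 1.5-fold minimum.

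**Figure D1:**
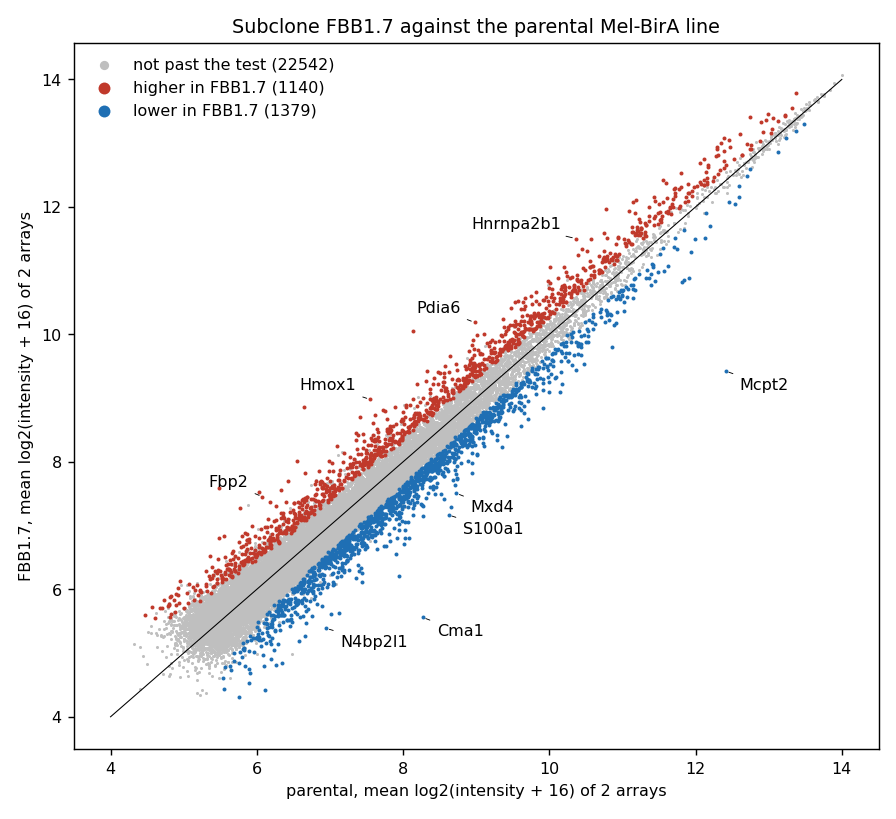
Mean log2(intensity + 16) of the 2 FBB1.7 arrays (vertical axis) against that of the 2 parental arrays (horizontal axis) for the 25061 tested probe sets, with the line of equality. Red points (1140) were higher and blue points (1379) lower in FBB1.7 by limma's test. Mcpt2 and Cma1 lie furthest below the line, and most other called points lie close to it.

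The gene furthest from parental was Mcpt2, a mast cell chymase. Its intensity was 716 and 630.1 in FBB1.7, against 5974 and 4933 in parental cells. The parental arrays were about 8.08-fold brighter (log2 difference -2.98 ± 0.12 SE, limma's adjusted p = 4e-09). Mcpt2 read 5522 and 4454 in FBB1.5, 2356 and 1836 in FBB1.10 and 1519 and 1456 in FBB1.11, so FBB1.5 overlapped parental, FBB1.10 and FBB1.11 lay between, and FBB1.7 held the lowest values of the series. Against the mean of these 3 subclones Mcpt2 was lower by 1.86 (adjusted p = 2e-07).

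Cma1, a second chymase gene of the same cluster on chromosome 14, was also lowest on the FBB1.7 arrays. It read 33 and 29.4 in FBB1.7, against 324 and 263 in parental cells, and 571 and 323 in FBB1.5, 89.2 and 76.2 in FBB1.10 and 36.2 and 53.1 in FBB1.11. FBB1.5 again reached the parental level, and FBB1.11 came closest to FBB1.7. FBB1.7 2 was below the table median, so the gene was at least 9.19-fold lower (adjusted p = 5.6e-06). Both genes kept their calls whichever array was left out, and also with the actin covariate. Among the mast cell proteases and granule genes, 5 of 8 measured members fell and 3 did not pass, with a median log2 difference of -0.66, against -0.015 over all 12502 genes. The share of all genes called lower was 6.38%. Srgn, the proteoglycan core of secretory granules, read 740.1 and 861 in FBB1.7, against 1414 and 1317 in parental cells, and fell by 0.76 ± 0.11 (adjusted p = 0.00049). Cpa3, a mast cell carboxypeptidase, read 56.5 and 40.4 in FBB1.7, against 106 and 92.3 in parental cells (adjusted p = 0.0058, 0.077 without FBB1.7 2 and 0.072 with the actin covariate). Gzmb, granzyme B, fell by 0.56 (adjusted p = 0.022) but missed the threshold without FBB1.7 1, FBB1.7 2 or parental 1 (adjusted p up to 0.15) and with the actin covariate (0.18). Tpsb2, a tryptase gene, stood at the other end of the list, at 60.9 and 47.5 in FBB1.7, against 38.5 and 38.9 in parental cells (0.35, adjusted p = 0.22). Without FBB1.7 2 the count of lower members was 3, and it was 3 with the actin covariate. Against the other 3 subclones 3 of the 8 were lower, with a median of -0.145, where 4.07% of all genes were called lower.

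Several mast cell markers were near background. Of 7 mast cell and basophil markers with a probe set, Fcer1a and Ms4a2, chains of the IgE receptor, Hdc, which makes histamine, and Mcpt8 did not exceed the table median on any of the 4 arrays. Cpa3, Tpsb2 and Kit, the stem cell factor receptor, exceeded it on both parental arrays, and Cpa3 and Tpsb2 on all 4. The summed intensity over the 7 was 189 to 202 in FBB1.7 and 214 to 242 in parental cells. Of 6 other mast cell and basophil genes measured, 2 fell, where 6.38% of all genes were called lower. Ndst2, an enzyme of heparin synthesis, read 569.5 and 492 in FBB1.7, against 1199 and 1042 in parental cells, and was lower by 1.06 ± 0.10 (adjusted p = 3.1e-05). Gata2, a progenitor transcription factor that mast cells also need, read 130.0 and 149 in FBB1.7, against 268 and 261 in parental cells (adjusted p = 0.00048). In whole cultures, fewer cells of a type and less RNA per cell cannot be told apart, and the part of mast cell marker levels in the protease result was not tested.

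The change at Mcpt2 and Cma1 did not extend evenly along chromosome 14. All 5 tested genes of the protease cluster had negative differences, and besides these 2 Gzmb passed, as given above. Mcpt4 had a log2 difference of -0.47 (adjusted p = 0.18) and the neutrophil protease gene Ctsg one of -0.24 (adjusted p = 0.45). Of the tested genes on either side of the cluster, Khnyn was lower (-0.56, adjusted p = 0.012, and up to 0.083 without FBB1.7 1, FBB1.7 2 or parental 1), while Sdr39u1, the nearest tested neighbour on that side, stood at 0.12 and Atp12a on the other side at 0.47 (adjusted p = 0.68 and 0.18). Khnyn was named for its call, and Sdr39u1 and Atp12a for their position. The promoter of Cma1, here the 250 bases before the RefSeq start (chr14:55944676-55944925, minus strand, GRCm38.p6), is shown because it lies at one of the genes furthest apart. It holds 1 match, in capitals on the reverse strand, to GATAA, the letters read by GATA factors.
Cma1: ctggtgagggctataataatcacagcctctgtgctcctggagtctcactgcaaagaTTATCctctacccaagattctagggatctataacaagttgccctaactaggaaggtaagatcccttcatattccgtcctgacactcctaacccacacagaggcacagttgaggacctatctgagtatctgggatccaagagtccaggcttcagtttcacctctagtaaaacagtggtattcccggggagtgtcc
GATAA, searched on both strands, occurred in 5 of 12 promoters of the mast cell protease list, in 18.4% of 10083 tested genes and in 25.5% of all 27025 genes with a promoter in the table. GATAA was present in 20% of 441 genes higher and 15.8% of 659 genes lower in FBB1.7. The match describes letters and not binding, and no entry for Mcpt2 was used here.

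**Figure D2:**
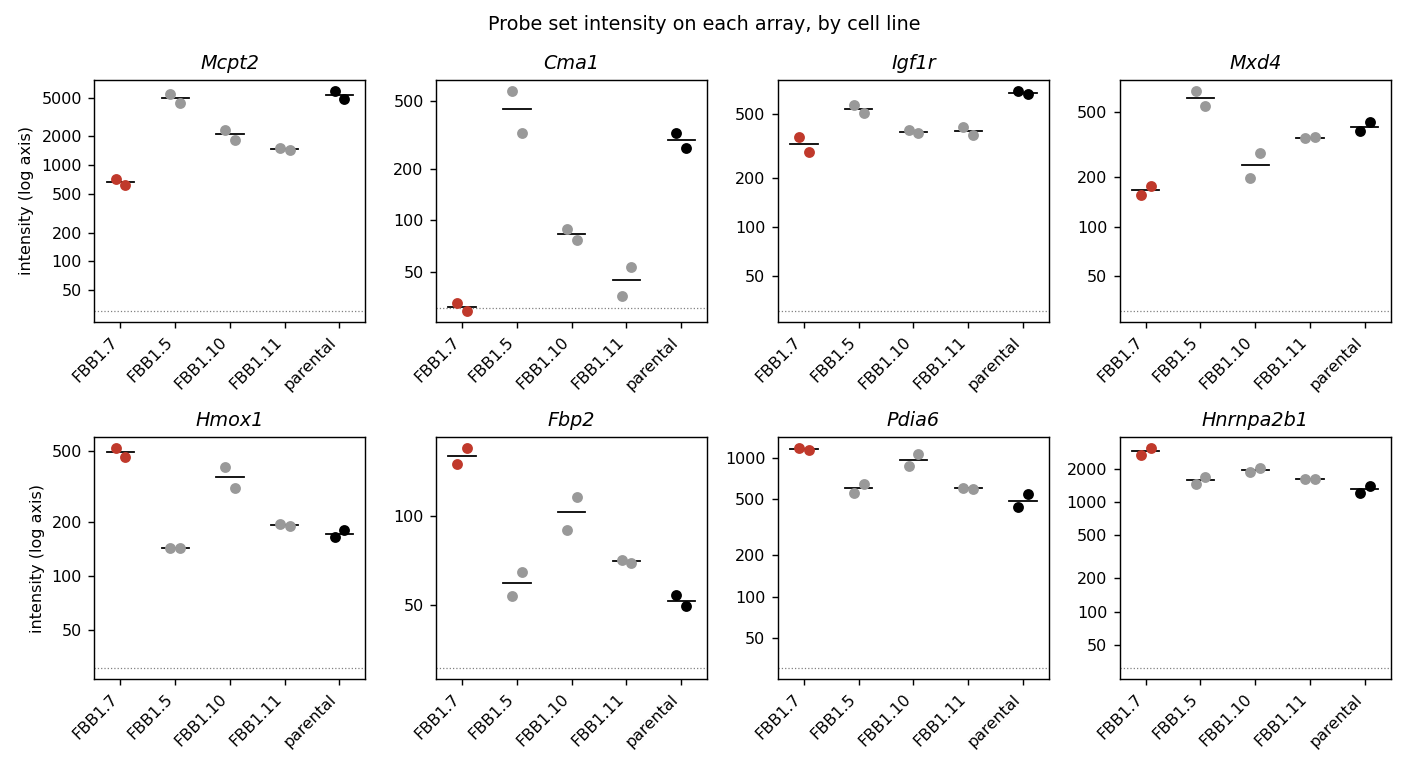
Intensity on each of the 10 arrays (log axis) for 4 genes lower in FBB1.7 (top row) and 4 higher (bottom row). Points are single arrays, with FBB1.7 in red, the other subclones in grey and parental in black, horizontal bars are means of 2 arrays and the dotted line is the table median of 30.5. For Mcpt2 the FBB1.7 arrays (716 and 630.1) lie below every other array, and for Hmox1 (517 and 462) above every other.

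Among genes higher in FBB1.7 that kept the call whichever array was left out, Hmox1 differed most. Hmox1 encodes haem oxygenase, which breaks down haem to iron, biliverdin and carbon monoxide. Its intensity was 517 and 462 in FBB1.7, against 164 and 179 in parental cells, a 2.85-fold difference (1.43 ± 0.13 log2, limma's adjusted p = 1.5e-05). The remaining subclones read 143 and 143 in FBB1.5, 405 and 311 in FBB1.10 and 196 and 190.0 in FBB1.11, so no array overlapped FBB1.7, and FBB1.7 exceeded their mean by 1.13 (adjusted p = 9.2e-05). Fbp2, a gluconeogenic phosphatase gene, read 149.7 and 169 in FBB1.7, against 53.7 and 49.4 in parental cells (1.38 ± 0.14, adjusted p = 4.7e-05). Hnrnpa2b1, an RNA-binding protein of splicing and RNA transport, read 2692 and 3096 in FBB1.7, against 1200.1 and 1407 in parental cells (adjusted p = 1e-05), and 2 of its 4 tested probe sets rose. Tagln2, an actin-binding protein gene, read 1105 and 903 in FBB1.7, against 471 and 533 in parental cells, with both of its probe sets higher (adjusted p = 0.00016 for the brighter). Fdps, an enzyme of isoprenoid and sterol synthesis, read 935 and 965 in FBB1.7, against 509 and 453 in parental cells (adjusted p = 0.00042). Slc38a5, a glutamine transporter gene, read 592 and 604 in FBB1.7, against 257 and 357 in parental cells (adjusted p = 0.00074). Snrpd3, a core protein of spliceosomal particles, and Sec13, a coat protein of vesicles leaving the endoplasmic reticulum, rose by 0.93 and 0.93 (adjusted p = 0.00023 and 0.00031).

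These 8 genes kept their calls whichever array was left out. Others among the 15 highest rested on single arrays. Elovl6, a fatty acid elongase, had the largest fitted difference of the 15 (1.51 ± 0.42), but read 86.6 and 220.5 in FBB1.7, against 42.3 and 35.4 in parental cells. Its FBB1.7 arrays differed from each other more than FBB1.7 1 did from parental, and the call ended without FBB1.7 2, parental 1 or parental 2 (adjusted p up to 0.29). Dusp7, a phosphatase of ERK kinases, read 100.1 and 97.5 in FBB1.7, against 56.3 and 14.2 in parental cells, and its call ended without FBB1.7 1, FBB1.7 2 or parental 2 (adjusted p up to 0.24). 6820431F20Rik and Rhox9, a homeobox gene, lost their calls without FBB1.7 1 (adjusted p = 0.081 and 0.14), and Zfp346 without FBB1.7 1, FBB1.7 2 or parental 2 (adjusted p up to 0.16). Calr3 was at the threshold (adjusted p = 0.0497) and missed it without any 1 of 7 arrays, namely both FBB1.7 arrays, both FBB1.5 arrays, both FBB1.10 arrays and parental 2 (adjusted p up to 0.43). Elovl6, Dusp7, 6820431F20Rik, Rhox9, Zfp346 and Calr3 missed the threshold with the actin covariate (adjusted p between 0.075 and 0.75).

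Besides the chymases, the 15 lowest genes included several that are bright enough to be measured on every array. Grcc10 read 145 and 139 in FBB1.7, against 381 and 391 in parental cells, and fell by 1.35 ± 0.12 (adjusted p = 1.6e-05). S100a1, a calcium-binding protein gene, read 130.0 and 125 in FBB1.7, against 439.6 and 325 in parental cells (adjusted p = 0.00034). Mxd4, which encodes a repressor that competes with MYC for its partner MAX, read 155 and 178 in FBB1.7, against 382 and 433 in parental cells (-1.22 ± 0.15, adjusted p = 0.00017). Non-overlap of FBB1.7 and parental arrays was a condition for the 15 highest and 15 lowest genes, so it is no separate result. Tspoap1 read 92.6 and 66.2 in FBB1.7, against 189.6 and 265 in parental cells (adjusted p = 0.00066) and Fam178b 57.5 and 55 in FBB1.7, against 159 and 137 in parental cells (adjusted p = 0.00019). N4bp2l1 was at least 3.47-fold lower, Espn, an actin-bundling protein gene, at least 2.6-fold and Nol4l at least 2.05-fold, each with an FBB1.7 array at or below the table median (adjusted p = 0.00021, 0.0017 and 0.0012).

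The calls of these 8 genes held whichever array was left out. With the actin covariate Espn and Nol4l missed the threshold (adjusted p = 0.058 and 0.052). Aplf, a DNA repair gene, had parental arrays far apart, at 36.2 and 31 in FBB1.7, against 48 and 289 in parental cells, and its call ended without any 1 of 9 arrays (adjusted p up to 0.35). Tas2r119, a taste receptor gene, was below the table median on both FBB1.7 arrays (6.98 and 4.02 in FBB1.7, against 37.8 and 72.5 in parental cells), and missed the threshold without parental 2 (adjusted p = 0.074). 1700129C05Rik, H3f3b and Vwf, the von Willebrand factor gene, completed the 15 and each lost its call without 2 of the 4 arrays compared (adjusted p up to 0.074, 0.19 and 0.11). With the actin covariate Aplf, Tas2r119, 1700129C05Rik and H3f3b missed the threshold (adjusted p = 0.79, 0.11, 0.19 and 0.16).

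The proteasome was the list with the largest share of members higher in FBB1.7. Of 30 subunit genes measured, 21 rose and 9 did not pass, with a median log2 difference of 0.44 against -0.015 over all genes, of which 4.28% were called higher. By probe set, 27 of 51 rose. The shares of all genes given beside the lists are not matched for brightness. Genes called higher had a median intensity of 541, against 116 over all tested genes. In the core particle, Psmb7, a catalytic subunit with trypsin-like activity, read 1973 and 2034 in FBB1.7, against 1129 and 1242 in parental cells (0.75 ± 0.07, limma's adjusted p = 3e-05). The structural core subunit Psmb3 read 1337 and 1409 in FBB1.7, against 778 and 818 in parental cells (adjusted p = 0.00013), and Psmb4 read 4320.1 and 4418 in FBB1.7, against 2536 and 3046 in parental cells (adjusted p = 0.00019). Neither FBB1.7 array overlapped a parental array for these. The chymotrypsin-like subunit Psmb5 differed less, by 0.31 (adjusted p = 0.03, up to 0.16 without FBB1.7 1, FBB1.7 2 or parental 1, and 0.08 with the actin covariate).

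The outer ring of the core and the cap followed. Psma2, of the ring that gates entry, read 1460.3 and 1497 in FBB1.7, against 941 and 975 in parental cells (adjusted p = 0.00021). Psmd4, a ubiquitin receptor of the cap, read 3384 and 3094 in FBB1.7, against 2399 and 2447 in parental cells (adjusted p = 0.0018). The largest cap scaffolds Psmd1 and Psmd2 rose by 0.52 and 0.51 (adjusted p = 0.0045 and 0.0033), and among the ATPases that unfold substrates Psmc3 rose by 0.52 and Psmc5 by 0.45 (adjusted p = 0.0056 and 0.011). Psmc3 missed the threshold without FBB1.7 1 or FBB1.7 2 (up to 0.052), and Psmc5 without either of these or parental 1 (up to 0.089). At the low end, Psmd11 and Psmd3 stood at -0.06 and -0.02 (adjusted p = 0.71 and 0.94). Without FBB1.7 1 the number higher was 13, without FBB1.7 2 12, and with the actin covariate 19.

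Against the mean of the other 3 subclones, 16 of the 30 proteasome genes were higher, with a median of 0.27, where 2.18% of all genes were called higher in that comparison and the median over all genes was -0.023. Psmb7 exceeded the other subclones by 0.48 and Psmb3 by 0.48 (adjusted p = 0.00054 and 0.0015). Psmb5 stood at -0.02 (adjusted p = 0.91). Both comparisons share the FBB1.7 arrays.

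**Figure D3:**
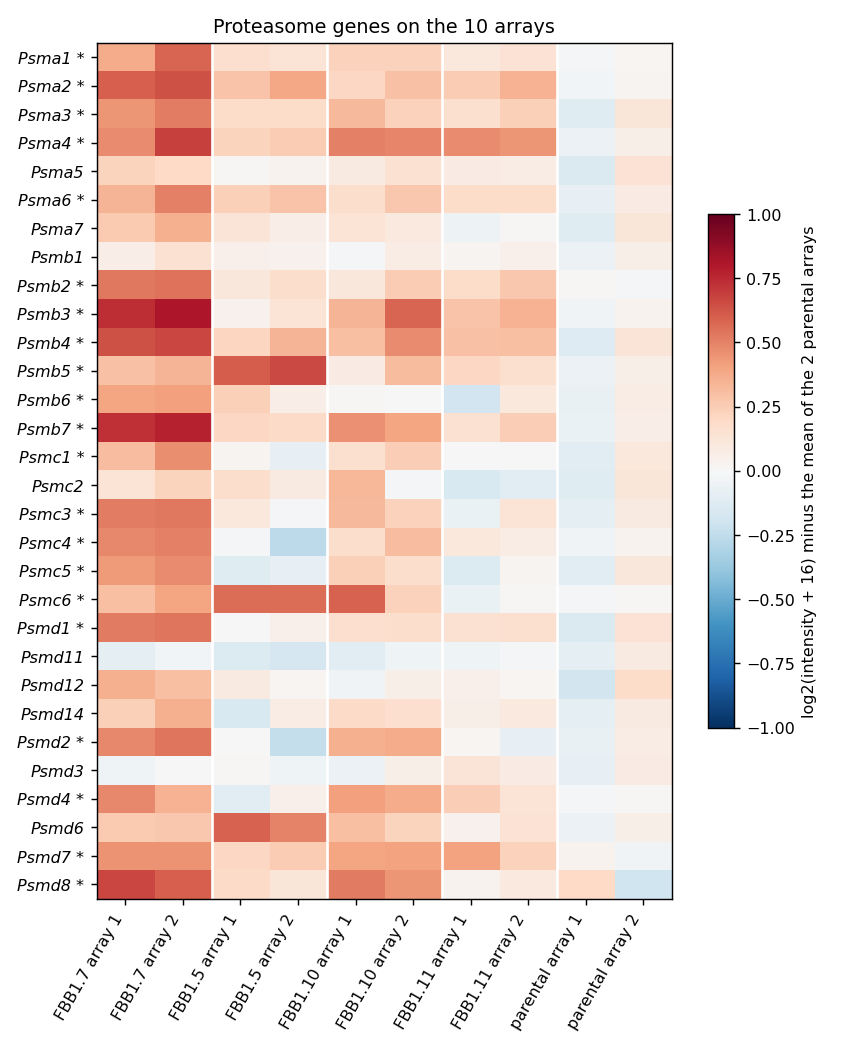
Each row is a proteasome gene and each column an array, with FBB1.7 at the left and parental at the right. Colour gives log2(intensity + 16) minus the mean of the 2 parental arrays, red above and blue below, and asterisks mark the 21 genes higher in FBB1.7 than in parental cells by limma's test. The FBB1.7 columns are red for most genes, with the largest fitted difference, 0.77, at Psmb3.

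Among chaperones and oxidoreductases of the endoplasmic reticulum, 9 of 20 genes measured rose and 11 did not pass (median log2 difference 0.32), where 4.28% of all genes were called higher. Pdia6, a disulfide isomerase, changed most, at 1175 and 1126 in FBB1.7, against 438 and 544 in parental cells (1.21 ± 0.12, limma's adjusted p = 2.9e-05), though 1 of its 2 probe sets did not pass. Hspa5, the chaperone BiP that binds nascent chains and holds stress sensors inactive, read 1425 and 1380.1 in FBB1.7, against 831 and 878 in parental cells (0.70, adjusted p = 0.00023). Hsp90b1, the reticulum's HSP90 (GRP94), read 1762 and 1797 in FBB1.7, against 984 and 1042 in parental cells (0.80, adjusted p = 2e-05). All FBB1.7 arrays were above all parental arrays for Hspa5 and Hsp90b1. Calr, calreticulin, and Pdia3, which acts with it on glycoproteins, rose by 0.51 and 0.63 (adjusted p = 0.00019 and 0.00032), and Canx, calnexin, by 0.25 (adjusted p = 0.03, up to 0.15 without FBB1.7 1, FBB1.7 2, parental 1 or parental 2, and 0.15 with the actin covariate).

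Other genes of the stress response, chosen after their values were seen, did not pass. Atf6, a sensor of unfolded protein, stood at -0.02, Xbp1, the splicing target of the IRE1 sensor, at -0.18, and Herpud1, a factor of degradation from the reticulum, at 0.00 (adjusted p = 0.96, 0.33 and 0.99). Against the other 3 subclones 6 of the 20 genes were higher, among them Hsp90b1 by 0.55 and Pdia6 by 0.70 (limma's adjusted p = 0.00022 and 0.00087). In that comparison 2.18% of all genes were called higher. Without FBB1.7 1 or FBB1.7 2 the number higher than parental was 5, and it was 6 with the actin covariate.

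Promoters of 5 of these genes are shown, because their transcripts rose and each holds the endoplasmic reticulum stress element, known to be read by NF-Y together with ATF6. It was searched on both strands as CCAAT and CCACG with any 9 bases between them. Each is the 250 bases before the RefSeq start in GRCm38.p6, written 5' to 3' on the gene's strand, with matches on either strand in capitals. They lie at chr2:34771840-34772089 (plus strand) for Hspa5, chr10:86705445-86705694 (minus strand) for Hsp90b1, chr12:17266339-17266588 (plus strand) for Pdia6, chr8:84846932-84847181 (minus strand) for Calr and chr11:50325674-50325923 (minus strand) for Canx.
Hspa5: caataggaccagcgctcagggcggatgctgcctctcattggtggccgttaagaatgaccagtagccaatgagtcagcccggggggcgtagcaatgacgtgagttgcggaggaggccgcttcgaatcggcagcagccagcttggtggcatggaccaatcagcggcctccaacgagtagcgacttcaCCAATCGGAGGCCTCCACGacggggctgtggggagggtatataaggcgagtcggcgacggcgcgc
Hsp90b1: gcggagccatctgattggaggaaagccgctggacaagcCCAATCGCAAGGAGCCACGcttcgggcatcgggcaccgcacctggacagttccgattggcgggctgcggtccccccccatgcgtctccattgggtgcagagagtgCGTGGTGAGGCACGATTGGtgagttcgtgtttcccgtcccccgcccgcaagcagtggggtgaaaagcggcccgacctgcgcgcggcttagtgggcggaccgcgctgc
Pdia6: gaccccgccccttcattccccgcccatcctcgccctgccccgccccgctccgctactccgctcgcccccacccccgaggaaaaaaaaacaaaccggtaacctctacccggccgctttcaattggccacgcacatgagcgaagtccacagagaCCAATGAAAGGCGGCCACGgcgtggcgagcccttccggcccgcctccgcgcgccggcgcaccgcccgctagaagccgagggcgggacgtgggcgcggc
Calr: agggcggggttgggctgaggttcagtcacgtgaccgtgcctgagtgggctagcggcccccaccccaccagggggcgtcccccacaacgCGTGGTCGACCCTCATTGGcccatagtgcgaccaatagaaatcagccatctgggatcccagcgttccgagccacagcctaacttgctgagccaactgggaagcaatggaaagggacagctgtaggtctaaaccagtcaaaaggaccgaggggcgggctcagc
Canx: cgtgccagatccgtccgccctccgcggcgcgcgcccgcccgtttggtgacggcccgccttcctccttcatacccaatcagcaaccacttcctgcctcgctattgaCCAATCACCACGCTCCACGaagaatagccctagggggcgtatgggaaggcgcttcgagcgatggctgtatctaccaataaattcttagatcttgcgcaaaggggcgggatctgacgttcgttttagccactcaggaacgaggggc
Hsp90b1 holds 2 matches, 1 on each strand, and the match of Calr is on the reverse strand. The element occurred in 7 of 16 list members with a promoter in the table, in 35 of 27025 genes (0.13%) and in 15 of 10083 tested genes (0.149%). It occurred in 5 of 441 genes higher in FBB1.7 (1.13%) and in 1 of 659 lower (0.152%). The 5 are those shown, which were picked for rising and holding the element, so this share is no separate result. No other tested gene with the element was among those higher. The remaining list members with a match, Dnajc3 and Creld2, had log2 differences of 0.41 and 0.36 and missed the threshold (adjusted p = 0.054 and 0.078). Of the 9 without a match, Pdia3, Sdf2l1 and Sec61b rose. The call of Sdf2l1 ended without any 1 of 5 arrays and that of Sec61b without any 1 of 6, both FBB1.7 arrays, parental 1 and both FBB1.11 arrays among them (adjusted p up to 0.27 and 0.21), and both ended with the actin covariate (0.082 and 0.17). None of 24 proteasome promoters held the element. TGACCA, the motif bound by BCL11A at globin promoters, occurred on either strand in 12.2% of higher, 10% of lower and 11.7% of tested genes. The motifs were searched separately, and matches are letters, not sites of binding.

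Of 24 DNA replication genes measured, 9 rose in FBB1.7 and 15 did not pass. Their median log2 difference was 0.25 against -0.015 over all genes, of which 4.28% were called higher. Compared with the other 3 subclones, 5 were higher, with a median of 0.16, where 2.18% of all genes were called higher. Mcm5, of the helicase that opens replication origins, read 1470.0 and 1454 in FBB1.7, against 802 and 988 in parental cells (0.71, limma's adjusted p = 0.00043). Pcna, the sliding clamp of DNA polymerases, read 1864 and 2005 in FBB1.7, against 1273 and 1354 in parental cells (adjusted p = 0.00074). Rrm1, the large subunit of ribonucleotide reductase, read 695 and 669 in FBB1.7, against 366 and 458 in parental cells (adjusted p = 0.0013), and both of its probe sets rose. The lower of the FBB1.7 arrays was above the higher of the parental arrays in each case. Without FBB1.7 1, FBB1.7 2 or parental 1 the number higher was 4, and with the actin covariate it was 7. Of 23 mitosis genes 5 rose, among them the spindle factor Tpx2 (0.46, adjusted p = 0.0085, 0.10 without FBB1.7 1 and 0.067 with the actin covariate), but at most 1 did without FBB1.7 1, FBB1.7 2 or parental 1, 2 did with the actin covariate and 3 without either FBB1.11 array.

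Of 17 genes for G1 cyclins, their kinases and inhibitors, Cdk6 and Ccnd2 fell and 15 did not pass, where 6.38% of all genes were called lower. Cdk6, a kinase of G1, read 944 and 909 in FBB1.7, against 1277 and 1625 in parental cells (adjusted p = 0.0025), and Ccnd2, its cyclin D partner, 1279.7 and 1212 in FBB1.7, against 1721 and 1939.6 in parental cells (adjusted p = 0.0036), with 4 of 7 Ccnd2 probe sets lower. FBB1.7 was also below the other 3 subclones for both, by 0.53 and 0.67 (adjusted p = 0.0031 and 0.00054). The call of Cdk6 against the subclones was lost when either FBB1.7 array was left out (adjusted p at most 0.06). Both calls against parental held whichever array was left out, and both missed the threshold with the actin covariate (adjusted p = 0.06 and 0.072). Myc, the oncogene with which Mxd4 competes, had a log2 difference of -0.23 from parental (adjusted p = 0.18) and was lower than in the other 3 subclones by 0.54 (adjusted p = 0.0015).

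Some receptors and kinases of cytokine and growth factor signalling were lower. Of 25 measured, 6 fell and 19 did not pass, with a median log2 difference of -0.24, where 6.38% of all genes were called lower. Igf1r, the receptor of insulin-like growth factor, read 361 and 289 in FBB1.7, against 689.8 and 655 in parental cells (-1.02 ± 0.11, limma's adjusted p = 9.2e-05). Its 4 tested probe sets differed among themselves, since 2 fell and 1 rose, at 297 and 314 in FBB1.7, against 189 and 186 in parental cells (0.66, adjusted p = 0.0017). Insr, the insulin receptor, read 76.5 and 84.2 in FBB1.7, against 144 and 140.4 in parental cells (adjusted p = 0.003). No FBB1.7 array reached a parental array for Insr or the brightest Igf1r probe set. Jak2, the kinase that carries the erythropoietin signal, Jak1, Stat5b, a transcription factor it activates, and Pim1, a STAT target, fell by 0.48, 0.45, 0.56 and 0.46 (adjusted p = 0.025, 0.01, 0.033 and 0.026). None of these 4 passed without FBB1.7 2 or without parental 2, nor did Pim1 without FBB1.7 1 or Stat5b without parental 1 (adjusted p up to 0.23, 0.099, 0.34 and 0.15). All 4 missed the threshold with the actin covariate as well (adjusted p = 0.39, 0.16, 0.21 and 0.23). The erythropoietin receptor gene Epor stood at 0.14 (adjusted p = 0.39). Without FBB1.7 2 or parental 2 the number lower was 2, as it was with the actin covariate. Among 17 immediate early genes, 4 fell and Dusp7 rose. The AP-1 subunit Junb read 97.7 and 87.2 in FBB1.7, against 186 and 173 in parental cells (adjusted p = 0.0009), and 1 gene of that list was lower without FBB1.7 1, FBB1.7 2 or parental 2 and with the actin covariate.

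**Figure D4:**
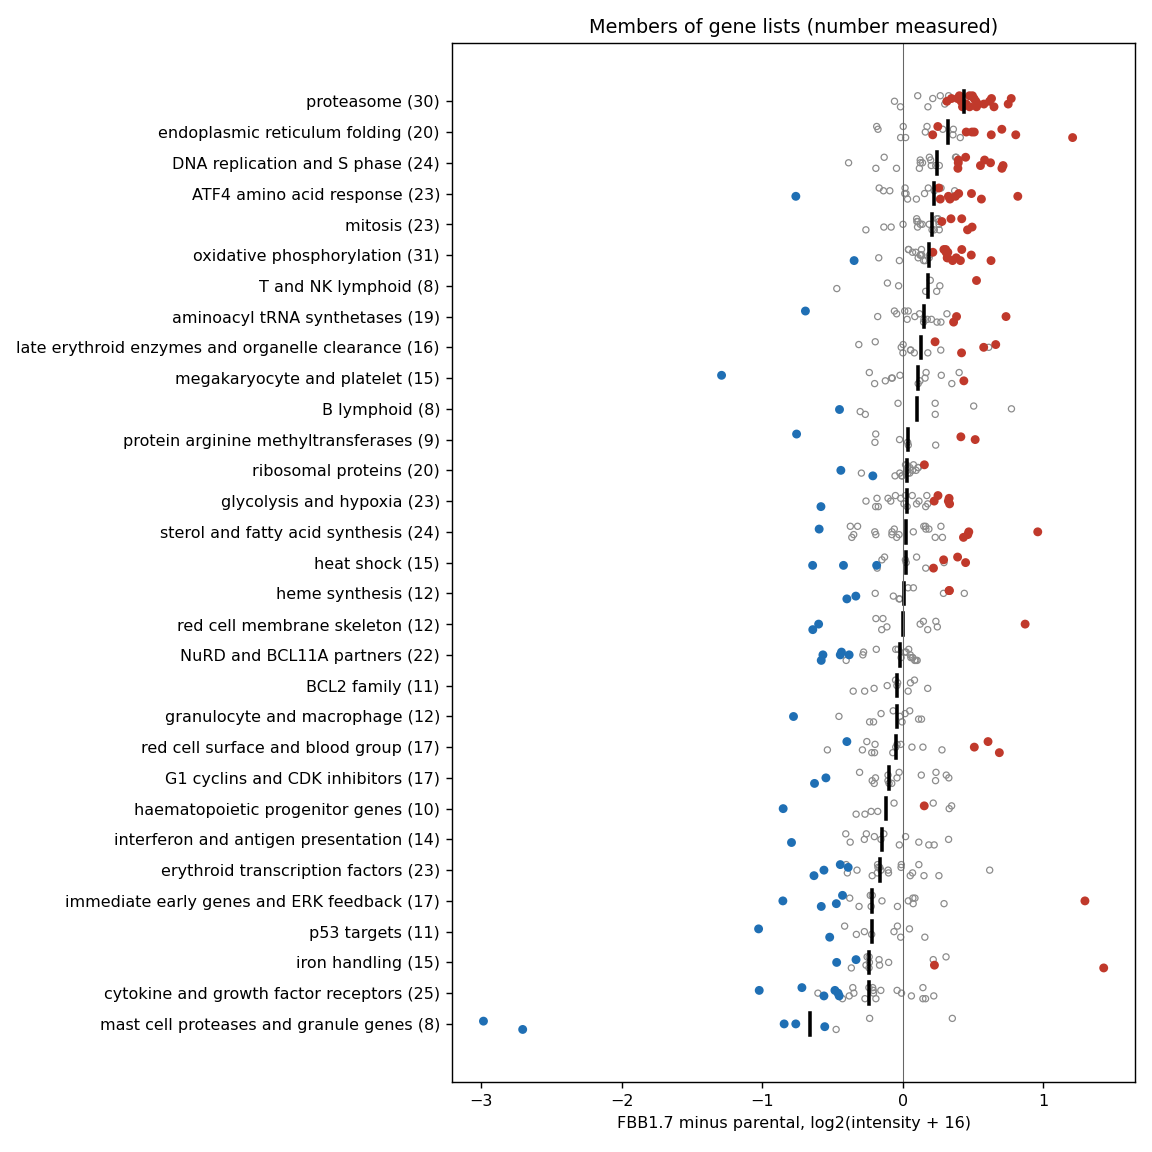
Log2 difference, FBB1.7 minus parental, of each measured gene (points) in lists with 8 or more measured members, whose number stands in brackets, ordered by the list median (vertical bars). Red points were higher and blue points lower in FBB1.7 by limma's test, and open points did not pass. Proteasome, endoplasmic reticulum folding and DNA replication lists lie furthest to the right, and mast cell proteases furthest to the left with a median of -0.66.

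In energy metabolism, 14 of 31 genes of oxidative phosphorylation rose, 1 fell and 16 did not pass. Their median log2 difference was 0.19, where 4.28% of all genes were called higher and 6.38% lower. Compared with the other 3 subclones, 3 were higher and 1 lower, with a median of 0.077, where 2.18% of all genes were called higher. Atp5a1 and Atp5b, catalytic subunits of ATP synthase, read 6746 and 6461 in FBB1.7, against 4378 and 4157 in parental cells, and 6426 and 6471 in FBB1.7, against 4711 and 4482 in parental cells (limma's adjusted p = 1.5e-05 and 6.9e-05). Cycs, cytochrome c, rose by 0.42, and Uqcrh, of complex III, fell by 0.35 (adjusted p = 0.0028 and 0.0033). Uqcrh missed the threshold with the actin covariate (adjusted p = 0.07). The number higher was 4 without FBB1.7 1 or FBB1.7 2, 5 without parental 1, 9 after quantile normalization and 10 with the actin covariate. Of 23 glycolysis and hypoxia genes 5 rose and 1 fell, and 3 rose without FBB1.7 1. Ldha, lactate dehydrogenase, read 10786 and 10652 in FBB1.7, against 8406 and 8646 in parental cells, a log2 difference of 0.33 (adjusted p = 0.00012). In the sterol and fatty acid list 4 of 24 rose, including Fdps, and 1 fell. Fasn, fatty acid synthase, fell at 487 and 414 in FBB1.7, against 688 and 685 in parental cells (adjusted p = 0.0056). The number higher there was 1 without FBB1.7 1 or FBB1.7 2 and with the actin covariate, 2 rose and 3 fell without parental 1, and Fasn missed the threshold without FBB1.7 2 (adjusted p = 0.079).

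Targets of ATF4, the transcription factor of the amino acid response, were higher in 9 of 23 cases and lower in 1, with a median of 0.22. Of all genes 4.28% were called higher and 6.38% lower. Against the other 3 subclones 3 were higher and 1 lower, with a median of -0.031. In that comparison 2.18% of all genes were called higher and 4.07% lower. Psph, of serine synthesis, read 431 and 470.1 in FBB1.7, against 228 and 269.6 in parental cells (adjusted p = 0.00032). Nupr1, a stress-induced chromatin protein gene, read 2722 and 2344 in FBB1.7, against 1559.6 and 1872 in parental cells (adjusted p = 0.0016), and Asns, asparagine synthetase, 3393 and 3337 in FBB1.7, against 2453 and 2650.3 in parental cells (adjusted p = 0.0018). Atf5, itself a target and a relative of ATF4, went the other way, at 482 and 478 in FBB1.7, against 881 and 771 in parental cells (adjusted p = 0.00042). Atf4 and the targets Ddit3, Chac1 and Trib3 did not pass (0.27, 0.15, 0.10 and 0.02). The number higher was 3 without FBB1.7 1, 4 without FBB1.7 2 or parental 1 and 5 with the actin covariate.

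Bcl11a had 6 tested probe sets, which did not give one direction. One read 62.4 and 65 in FBB1.7, against 39.7 and 35.9 in parental cells, without overlap but short of the threshold (0.57, limma's adjusted p = 0.071), and FBB1.7 lay below the mean of the other 3 subclones by 1.05 (adjusted p = 0.0013). Another fell, at 229 and 236 in FBB1.7, against 309.5 and 350.0 in parental cells (adjusted p = 0.015, up to 0.11 without FBB1.7 1, FBB1.7 2 or parental 2, and 0.19 with the actin covariate). The brightest, at 334 and 334 in FBB1.7, against 307 and 347 in parental cells, overlapped. Which probe sets lie in the construct was not analysed here, so none is assigned to the tagged transcript.

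Most genes for BCL11A's partners did not pass. Over all genes 6.38% were called lower and the median was -0.015. Of 22 genes for NuRD subunits and partners, 5 fell and 17 did not pass (median -0.02), and 2 were lower without FBB1.7 1 and 1 with the actin covariate. Rcor1, of the CoREST complex, read 502 and 505 in FBB1.7, against 710.2 and 800.4 in parental cells (adjusted p = 0.0011), Zfpm1, the GATA cofactor FOG1, 751 and 767 in FBB1.7, against 983 and 1099 in parental cells (adjusted p = 0.004) and Mta1, a NuRD subunit, 1489.7 and 1518 in FBB1.7, against 1952 and 1977 in parental cells (adjusted p = 0.0053, and 0.057 without FBB1.7 1). Zfpm1 and Mta1 missed the threshold with the actin covariate (adjusted p = 0.097 and 0.086). FBB1.7 was the lower line on every array for these. The histone deacetylases Hdac1 and Hdac2 stood at 0.05 and -0.05 (adjusted p = 0.82 and 0.82).

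Among 23 erythroid transcription factors, 4 fell and 19 did not pass, with a median of -0.16, where 6.38% of all genes were called lower. Cbfa2t3 (ETO2), a corepressor of the TAL1 complex, read 807 and 766 in FBB1.7, against 1084 and 1259 in parental cells on its brightest probe set (adjusted p = 0.0009). Of its 4 tested probe sets 3 fell, the dimmest by the most, at 69.1 and 48.2 in FBB1.7, against 244 and 218 in parental cells (-1.74, adjusted p = 1.3e-05). That dimmer probe set was picked after its value was seen. Zfpm1 is in this list too, Tcf3, a partner of TAL1, fell by 0.63 (adjusted p = 0.0081, and 0.082 without FBB1.7 1), and Tal1 by 0.39 (adjusted p = 0.045, and up to 0.23 without any 1 of 7 arrays). Tcf3 and Tal1 also missed the threshold with the actin covariate (adjusted p = 0.17 and 0.29). Gata1 and Klf1 stood at -0.01 and -0.18 (adjusted p = 0.94 and 0.19). With the actin covariate 1 of the 23 was lower and 1 higher, and 1 was higher without FBB1.7 2 or parental 2.

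Late erythroid genes did not follow one direction. The list counts that follow stand beside 4.28% of all genes called higher and 6.38% called lower. Adult alpha-globin, on the brightest probe set that Hba-a1 and Hba-a2 share, read 3932 and 3842 in FBB1.7, against 1952 and 2376 in parental cells (0.85, limma's adjusted p = 0.00015). A probe set of Hba-a2 alone also rose (adjusted p = 0.039) but missed the threshold with the actin covariate (0.23). That of Hba-a1 alone did not exceed the table median on any of the 4 arrays. The shared adult beta-globin probe set read 945 and 877 in FBB1.7, against 865 and 975 in parental cells, which overlap. Of 16 late erythroid enzyme and organelle clearance genes 4 rose. Gpx1, glutathione peroxidase, read 5099 and 4916 in FBB1.7, against 3273 and 3437 in parental cells (adjusted p = 2e-05), and Prdx2, a peroxiredoxin abundant in red cells, 3691 and 3731 in FBB1.7, against 2607 and 2949 in parental cells (adjusted p = 0.00079). The carbonic anhydrase gene Car1 rose by 0.23 (adjusted p = 0.0018). Of 17 red cell surface genes, Aqp1, a water channel, read 749 and 714 in FBB1.7, against 455 and 496 in parental cells (adjusted p = 0.0015). Abcb6 and Rhag rose as well and Ermap fell, but Abcb6 missed the threshold without FBB1.7 1, Rhag without FBB1.7 1 or FBB1.7 2 and Ermap without FBB1.7 2 (adjusted p up to 0.069, 0.09 and 0.063), and 2 surface genes were lower without parental 1 or parental 2. With the actin covariate Ermap missed it too (adjusted p = 0.052). Of 12 membrane skeleton genes 1 rose, 2 fell and 9 did not pass, with a median of 0.005. The spectrin gene Sptb rose by 0.87 (adjusted p = 0.0096, up to 0.13 without FBB1.7 1 or parental 2, and 0.26 with the actin covariate), though its dimmer probe set fell. Add1 and Add2, the adducins that cap actin in the membrane skeleton, fell at 472 and 481 in FBB1.7, against 791 and 714 in parental cells, and 369 and 361 in FBB1.7, against 577 and 546 in parental cells (adjusted p = 0.0013 and 0.0025).

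Haem and iron genes moved in both directions, where 4.28% of all genes were called higher and 6.38% lower. Of 12 haem synthesis genes, Cpox and Tmem14c rose and Urod and Slc25a39 fell, by 0.33 to 0.40 in size, and none of these passed without FBB1.7 1 or without FBB1.7 2 (adjusted p up to 0.23). Among 15 iron genes, Fth1, the ferritin heavy chain, read 11452 and 10865 in FBB1.7, against 9561 and 9519 in parental cells (adjusted p = 0.0027, and 0.0503 without FBB1.7 1). Tfrc, the transferrin receptor, read 2048 and 2025 in FBB1.7, against 2417 and 2730.3 in parental cells (adjusted p = 0.035, and up to 0.20 without FBB1.7 1, FBB1.7 2 or parental 2, or without either FBB1.11 array). Ireb2, an iron-sensing RNA-binding protein gene, fell by 0.47 (adjusted p = 0.013, and up to 0.092 without FBB1.7 1, FBB1.7 2 or parental 2). Hmox1 completed the iron genes that passed. With the actin covariate Cpox, Urod and Slc25a39 missed the threshold (adjusted p = 0.054, 0.2 and 0.16), as did Fth1, Tfrc and Ireb2 (adjusted p = 0.0504, 0.19 and 0.23).

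FBB1.7 was next set against the mean of FBB1.5, FBB1.10 and FBB1.11, which carry the same tagged protein, to see where this clone differed from them. Of the 25061 probe sets 1404 differed (5.60%), 522 higher (2.08%) and 882 lower (3.52%), and by gene 782 of 12502 (6.25%), 273 higher (2.18%) and 509 lower (4.07%). Besides the genes above, Fbxl19, an F-box protein gene that binds unmethylated CpG, read 1418 and 1259 in FBB1.7, and 551 and 522 in FBB1.5, 1003 and 831 in FBB1.10 and 825 and 843 in FBB1.11. FBB1.7 was above all 6 arrays and exceeded their mean by 0.83 (adjusted p = 0.00015), and it exceeded the parental arrays (723 and 819.8) by 0.78 (adjusted p = 0.00029). Chaserr, a long noncoding RNA beside Chd2, read 520.0 and 474 in FBB1.7, against 191 and 184 in FBB1.5, 373 and 258 in FBB1.10 and 174 and 193 in FBB1.11 (adjusted p = 0.00015) and against 288 and 301 in parental cells (adjusted p = 0.0046, and 0.062 without FBB1.7 1). Lgals3bp, a secreted glycoprotein gene, read 52.4 and 54.6 in FBB1.7, against 149 and 153 in FBB1.5, 93.5 and 94 in FBB1.10 and 97.3 and 164 in FBB1.11 (adjusted p = 0.0015). The count of 1404 was 174 without FBB1.7 1, 400 without FBB1.7 2, 567 without the FBB1.5 line, 861 without the FBB1.11 line and 912 without FBB1.11 1.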

How the data were processed

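Total RNA of 2 FBB1.7 arrays, 2 parental arrays and 6 arrays of 3 further subclones was used. Per the labels' protocols, oligo-dT-primed cDNA was transcribed into biotin-labelled cRNA and stained with streptavidin-phycoerythrin, which reads the 3' part of transcripts. The deposited values are linear intensities per probe set. The authors' summarisation, background correction and scaling are not given in the sources used here. Array medians differed by 0.0623 on the log2(intensity + 16) scale, so nothing further was normalized.

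Of 45101 probe sets 64 controls were left out. Probe sets above the table median (30.5) on at least 2 arrays were fitted in limma 3.58.1 (R 4.3.3) with 5 line means, an intensity trend (5 residual and 9.92 prior degrees of freedom) and Benjamini-Hochberg adjustment at 0.05. The number of arrays limits precision. With an array left out, its partner has no replicate, and the other lines supply the estimate of its spread. A fold is written "at least" where an array of the dimmer line was at or below the table median, to which it was then raised. Fitted differences of dim genes depend on the 16 added.

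Gene symbols come from the platform annotation: 21193 tested probe sets have 1 symbol, 583 several and 3285 none, and 21114 matched a RefSeq gene (GRCm38.p6) through the gene identifier. Promoters come from RefSeq, 27025 genes with 250 bases before the start. The members and the 35 gene lists were chosen with earlier results of these data known. Named genes are Bcl11a and globin probe sets, the 15 highest and 15 lowest genes that passed with non-overlapping arrays and the brighter line above the table median, up to 4 members of each list ranked by p, the 8 furthest above and 8 furthest below the other subclones, and the protease cluster. Other list members and neighbours named were chosen after their values were seen. Alternatives were a pseudocount of 1 or 64, median centring, quantile normalization, the filter, the variance model, a replicate block, a 1.5-fold minimum, the actin ratio as a covariate, fewer arrays in the fit, and each array or subclone left out. The fitting code was tested on simulated data.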

Additional observations from a re-analysis of the deposited data

Results flagged for a closer look

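In 16 genes the difference of FBB1.7 from parental was unlike that of the other 3 subclones, by limma's test of FBB1.7 against their mean, among 782 of 12502 genes (6.25%) that passed it. They are the 8 highest and 8 lowest by that difference. On the log2 scale Hmox1 stood at 1.13 (adjusted p = 9.2e-05), Chaserr at 1.12, Fbp2 at 0.94, Mapre2 at 0.84 and Fbxl19 at 0.83 (adjusted p = 0.00015, 0.00054, 0.00063 and 0.00015). Inka1 stood at 0.78, Smyd4 at 0.78 and Insl6 at 0.76 (adjusted p = 0.0056, 0.0054 and 0.0096). Inka1 and Smyd4 missed the threshold without FBB1.7 1 and Insl6 without either FBB1.7 array (adjusted p up to 0.22, 0.20 and 0.20).

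On the low side Mcpt2 stood at -1.86 (adjusted p = 2e-07), Cma1 at -1.55, Mxd4 at -1.08 and Espn at -1.05 (adjusted p = 0.00022, 0.00024 and 0.0049). Trmt44 stood at -1.03, Nol4l at -1.03, Frmd6 at -1.0 and Lgals3bp at -0.99 (adjusted p = 0.012, 0.0013, 0.0014 and 0.0015). Without FBB1.7 1, Espn, Trmt44 and Frmd6 missed it (adjusted p = 0.17, 0.33 and 0.066). Cma1, Espn, Trmt44, Nol4l and Frmd6 were at or below the table median on at least 1 FBB1.7 array, so their differences depend on the 16 added. Trmt44 read 15.5 and 50.4 on the FBB1.7 arrays, which differed from each other more than FBB1.7 2 did from parental (73.9 and 67.7).

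The subclones themselves were far apart for several of these. Mxd4 read 155 and 178 in FBB1.7, and 674 and 541 in FBB1.5, 198 and 279.8 in FBB1.10 and 347 and 352 in FBB1.11, so FBB1.5 and FBB1.7 lay on opposite sides of parental (382 and 433).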

How the results depend on the processing

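No named difference past the threshold changed sign under any alternative run, while among those that did not pass some did. Of the 2519 probe sets that differed from parental, the count was 1187 without the trend in intensity, 1628 with every probe set kept, 1586 with only the 4 arrays compared in the fit, 12 above a 1.5-fold minimum, 974 with the actin covariate, and 859 to 2637 with any 1 array left out. Median centring gave 909 higher and 1471 lower. Of the 1404 that differed from the other subclones, the counts were 855 with no filter, 475 without the trend, 1 above 1.5-fold, 567 without the FBB1.5 line and 861 without the FBB1.11 line, and 174 to 1851 with any 1 array left out. Of all list members 66 were called without the trend, 91 with the actin covariate and 73 to 155 with any 1 array left out, against 155. With an array left out, lower mast cell protease members numbered 3 to 5, higher endoplasmic reticulum members 5 to 9, ATF4 targets 3 to 9, replication genes 4 to 9, oxidative phosphorylation genes 4 to 16, proteasome genes 12 to 22 and lower receptor and kinase genes 2 to 7. Without the trend the numbers were 2 ATF4, 5 replication, 2 oxidative phosphorylation and 3 receptor genes, with no filter 5 ATF4 and 9 oxidative phosphorylation genes, with only 4 arrays 4 and 9, after quantile normalization 9 oxidative phosphorylation genes, and with the actin covariate 3 protease, 5 ATF4 and 2 receptor genes. Of 135 named calls, 130 missed a 1.5-fold minimum, 60 were lost without the trend and 60 with the actin covariate. Array numbers showed little pairing of the samples. Array 1 minus array 2 had r = -0.03 between FBB1.7 and parental, and from -0.157 to 0.183 over all pairs of lines. With array number as a replicate block the counts were 2494 and 1401. Causes were not tested.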

Other observations

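At most 2 markers of each other blood lineage passed, where 10.7% of all genes passed in either direction. Of 15 megakaryocyte and platelet genes, the chemokine gene Pf4 was higher, at 241 and 224 in FBB1.7, against 168 and 168 in parental cells (adjusted p = 0.022, and up to 0.17 without FBB1.7 1, FBB1.7 2, parental 1 or parental 2), and Vwf lower. Of 12 granulocyte and macrophage genes, Prtn3, a neutrophil protease, was lower, at 32.5 and 51.2 in FBB1.7, against 94.7 and 70.8 in parental cells (adjusted p = 0.039, and up to 0.31 without FBB1.7 1, parental 1 or either FBB1.11 array). Thy1, a surface glycoprotein best known from T cells, read 962 and 918 in FBB1.7, against 609 and 692 in parental cells (adjusted p = 0.0083, and 0.084 without FBB1.7 1) and exceeded the other 3 subclones by 0.59 (adjusted p = 0.0017). Igll1, a surrogate light chain of B cell precursors, was lower at 216 and 241 in FBB1.7, against 312 and 325 in parental cells (adjusted p = 0.029, and up to 0.21 without FBB1.7 1, FBB1.7 2, parental 1 or parental 2). Pf4, Prtn3 and Igll1 missed the threshold with the actin covariate (adjusted p = 0.14, 0.2 and 0.32).

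Heat shock protein genes outside the endoplasmic reticulum differed in direction. For this and the next lists, 4.28% of all genes were called higher and 6.38% lower. Of 15 measured, 4 rose and 3 fell, with 1 lower without FBB1.7 1, 2 higher without parental 2, and 2 higher and 1 lower with the actin covariate. Hspd1, a mitochondrial chaperonin, read 6224 and 6324 in FBB1.7, against 4463 and 4737 in parental cells (adjusted p = 0.00022), and Hsph1, a cytosolic chaperone of the HSP110 family, 639 and 658 in FBB1.7, against 1049.8 and 993 in parental cells (adjusted p = 0.00047). Protein arginine methyltransferases differed among themselves. Prmt1 read 1085 and 1051 in FBB1.7, against 668 and 826 in parental cells (adjusted p = 0.0065, and 0.068 without FBB1.7 1), and Prmt2 had a log2 difference of -0.76 (adjusted p = 0.0084, up to 0.084 without FBB1.7 1 or parental 2, and 0.23 with the actin covariate). H1f2, a linker histone, fell at 305 and 347 in FBB1.7, against 555 and 670.1 in parental cells (adjusted p = 0.0018, and 0.058 with the actin covariate), and FBB1.7 stood at 0.11 relative to the other 3 subclones (adjusted p = 0.7). Tap2, a peptide transporter of antigen presentation, fell at 139 and 107 in FBB1.7, against 231 and 216 in parental cells (adjusted p = 0.0021), 1 of 14 interferon and antigen presentation genes to pass. Qars, glutaminyl-tRNA synthetase, fell by 0.69 on the log2 scale with all 3 of its probe sets lower (adjusted p = 0.00026 for the brightest), where 3 of the 19 synthetase genes rose, and 1 did without FBB1.7 1 or FBB1.7 2.

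Probe sets of one gene could differ in direction. Of 329 genes with 2 or more called probe sets, 306 had them in the same direction and 23 in opposite directions. Sptb, beta-spectrin of the red cell skeleton, read 406 and 299.9 in FBB1.7, against 214 and 157 in parental cells on the brighter probe set and 59 and 64 in FBB1.7, against 135 and 126 in parental cells on the dimmer (adjusted p = 0.0096 and 0.00094). A probe set of Kif3b, a kinesin motor gene, read 158 and 199 in FBB1.7, against 32.4 and 25.6 in parental cells (log2 difference 2.11, adjusted p = 0.00011), while the 3 others of that gene did not pass. Kif3b and Sptb's dimmer probe set were chosen after their values were seen.

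Genes lower in FBB1.7 spanned more of the genome than those higher, with a median length of 24.9 kb against 15.8 kb for the higher genes and 22.2 kb over all tested genes. Both were brighter than the rest, at median intensities of 248 for lower and 541 for higher genes, against 116 for all. Called probe sets were spread over the chromosomes, with 7.88% of tested probe sets called on chromosome 14 and 13.7% on chromosome 9.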
